A study of Arabidopsis thaliana with 9 samples.

Results

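Gene expression of whole Arabidopsis thaliana seedlings after 72 h in 0.1 mM silver nitrate was compared with that of seedlings sampled at 0 h, over all loci measured. The comparison took every array titled with either time, 3 for 72 h and 3 for 0 h, which are 6 of the 9 arrays of the study. The other 3 arrays, from 48 h, entered the fit and were used to show where 72 h differed from them. Plants of both times were Col-0 seedlings aged 3 weeks, raised at 22 °C in continuous light for 1 week on agar and 2 weeks in shaken liquid medium, both with sucrose. The salt was present at 0.1 mM in the medium of the 72 h plants, and the 0 h plants were harvested at its addition. No untreated plants were kept for 72 h, so an effect of silver and an effect of 72 further hours in the same culture cannot be told apart. The labels describe the arrays of a time as independent experiments with different plants. The question is which genes and pathways differ in seedlings that have spent 3 days in silver.

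Silver ions bind thiol groups of cysteine, glutathione and proteins, and they can take the place of copper ions, for example in the ethylene receptors, where silver blocks perception of the hormone. Plants answer toxic metals with thiol synthesis, antioxidant enzymes and altered uptake of nutrient metals. Iron uptake, sulfate assimilation and the indole compounds of pathogen defence are each controlled largely by transcription in Arabidopsis.

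Each array carried 39102 spots labelled with 1 dye. Of the 37685 spots that were not controls, 65.4% to 68.3% were well above background. The array's 75th percentile of processed signal was 3203, 3221 and 3732 intensity units on the 72 h arrays, against 2975, 2808 and 1612 on the 0 h arrays. Replicate 3 of 0 h was thus the dimmest array. Values below are relative signals, the processed signal divided by that percentile of the array, and differences are log2 of 72 h over 0 h with their standard error. Across loci, which are not independent replicates, arrays correlated at 0.981 to 0.991 within 72 h, at 0.963 to 0.984 within 0 h and at 0.891 to 0.921 between the times. Replicates 1 of all times shared slide 1 and replicates 2 shared slide 2, while replicate 3 of 0 h was on slide 3 with its 48 h counterpart and replicate 3 of 72 h was alone on slide 4. For this reason differences of gene groups are also given with slide as a block and within slides 1 and 2.

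Of 21043 loci tested, 7627 were called (36.2%) at an adjusted p under 0.05, from limma with Benjamini-Hochberg adjustment over all loci. At 72 h, 3548 loci were higher (16.9%) and 4079 were lower (19.4%) than at 0 h. The median difference of all loci was 0.01, and that of called loci was 1.14 in size. A change of at least 2-fold was called for 1934 rises (9.19%) and 2486 falls (11.8%), and at least 16-fold for 139 rises and 151 falls. In 7601 of the 7627 called loci the direction was the same in all 3 same-numbered pairs of arrays, which largely follows from their being called. Loci without a symbol in the reference table made up 11811 of those tested, and 1919 of them rose and 2137 fell, so 34.3% were called, while 1629 rises and 1942 falls were found among 9232 loci with a symbol, 38.7% of them. Of the loci without a symbol, 1027 rises and 1286 falls were of at least 2-fold. The split of calls depended on the scaling: 46.5% were higher here, 37.0% with normexp background correction and 65.2% in the deposited value table, in which loci had a median of 0.23.

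**Figure D1:**
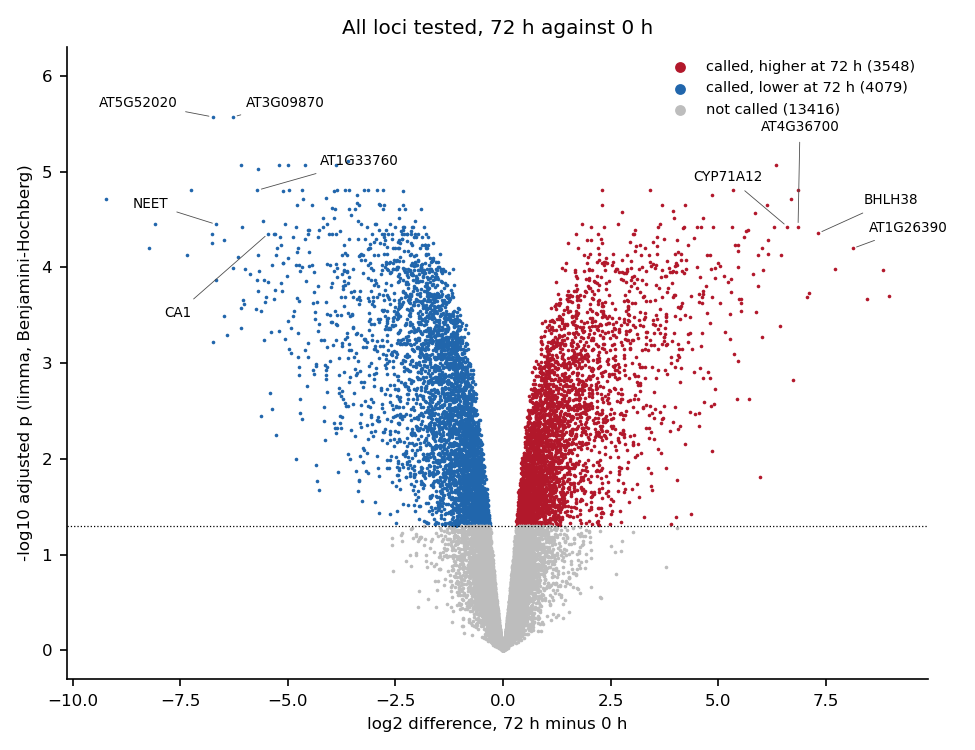
Difference of each of 21043 loci between 72 h and 0 h (log2, horizontal axis) against the strength of its test (-log10 of limma's adjusted p, vertical axis). The dotted line marks the threshold. Red points are 3548 loci called higher at 72 h and blue points are 4079 called lower. AT5G52020 and AT3G09870, which have no symbol, had the smallest adjusted p, on the side of the falls.

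Markers of seedling organs moved with time, and since the RNA came from whole plants, fewer cells of a type and less RNA per cell cannot be told apart. Of 6 root hair markers 5 fell (83.3%, against 19.4% of all loci, of which 16.9% rose), and their summed relative signal was 0.254 to 0.476 at 72 h, against 1.32 to 2.66 at 0 h. The expansin gene EXPA18 and the regulator RSL4, which drives root hair growth, differed by -4.51 ± 0.30 and -4.82 ± 0.31. RHS18 was above background on no 72 h array and was at least 47.4-fold lower, while RHD6, which specifies root hair cells, was at 0.454, 0.190 and 0.245 at 72 h, against 0.413, 0.254 and 0.271 at 0 h and was not called (-0.14 ± 0.34). Among 6 root markers 4 fell (66.7%), with a summed signal of 45.1 to 53.7 at 72 h, against 59.6 to 78.4 at 0 h, and PRP3 was above background on no 72 h array. The beta-glucosidase PYK10 was at 51.4, 49.4 and 43.7 at 72 h, against 68.0, 54.5 and 55.1 at 0 h and was not called. For shoot markers the sum was 152 to 176 at 72 h, against 292 to 351 at 0 h, and 4 of 5 fell (80%), such as LHCA1, an antenna protein of photosystem I (-1.49 ± 0.13). Of 5 guard cell lineage markers 4 fell (80%), including MUTE (-2.24 ± 0.39), for a sum of 1.02 to 1.23 at 72 h, against 1.54 to 1.73 at 0 h. Xylem markers went the other way, with 3 of 5 higher (60%) and a sum of 8.63 to 9.13 at 72 h, against 4.79 to 7.33 at 0 h. All 3 calls, of IRX1, IRX3 and IRX5, were lost without slides 3 and 4 (adjusted p = 0.0954, 0.0835 and 0.134). That of IRX5 was also lost with slide as a block (adjusted p = 0.0711). Without slides 3 and 4 the falls of EXPA7, PRP3, CASP1, RBCS1A, FAMA and SPCH were lost too. Slide as a block also ended those of EXPA7, CASP1 and RBCS1A (adjusted p = 0.054, 0.0918 and 0.0778). Quantile normalization ended that of RBCS1A (adjusted p = 0.88). The calls of CASP1, RBCS1A and FAMA were each lost in some fits without 1 array. Of 4 seed storage markers 1 was measured and it was not called, and of 4 floral markers only AG was called, lower. The part that a shift in tissue makeup has in the results below was not tested.

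The largest rises of loci with a symbol that were above background on all 6 arrays belonged to transcription factors of iron deficiency, to cytochromes P450 of indole defence and to hydrolases. BHLH38, which switches on iron uptake genes together with its close relative BHLH39, was at 7.22, 6.56 and 11.96 at 72 h, against 0.0222, 0.0858 and 0.0726 at 0 h. That is a difference of 7.32 ± 0.50, or 160.1-fold (adjusted p = 4.42e-05). The serine carboxypeptidase-like gene scpl30 was at 22.6, 3.54 and 3.996 at 72 h, against 0.0348, 0.0448 and 0.0224 at 0 h, a rise of 7.71 ± 0.68 (adjusted p = 0.000105) in which replicate 1 of 72 h stood above the others. CYP71A12, an enzyme of the route from tryptophan to camalexin and related compounds, was at 18.1, 10.2 and 15.1 at 72 h, against 0.255, 0.124 and 0.0940 at 0 h. Its difference was 6.61 ± 0.43, and that of CYP82C2, which acts on another branch of the same pathway, was 7.11 ± 0.71. DIN2, a beta-glucosidase first known as dark inducible, was at 13.1, 6.34 and 11.7 at 72 h, against 0.3996, 0.101 and 0.0371 at 0 h (6.44 ± 0.77). The U-box gene PUB54 rose by 5.71 ± 0.38 and the methyltransferase gene PXMT1 by 5.65 ± 0.38, for which the 0 h arrays were nearly equal at 0.222, 0.219 and 0.222. GLIP1, a secreted lipase of defence that was above background on 2 of the 0 h arrays, was at 5.68, 2.43 and 3.49 at 72 h, against 0.0302, 0.00630 and 0.00198 at 0 h. Its difference was 8.98 ± 0.92. In each of these genes every 72 h array lay above every 0 h array, as happened in 24.8% of all loci.

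The largest falls of loci with a symbol and above background on all 6 arrays were of a redox-responsive and a cold-related transcription factor, an iron-sulfur protein, and genes of roots and photosynthesis. RRTF1, an ERF transcription factor that responds to oxidative and wound signals, was at 0.0608, 0.206 and 0.105 at 72 h, against 8.30, 13.5 and 12.4 at 0 h. This is 102-fold lower (log2 -6.67 ± 0.63, adjusted p = 0.000135). NEET, a protein that carries an iron-sulfur cluster, was at 0.0201, 0.0324 and 0.0263 at 72 h, against 3.45, 2.56 and 2.01 at 0 h (-6.66 ± 0.42, adjusted p = 3.57e-05). CBF4 and CBF2, of the family of factors that bind drought and cold response elements, differed by -6.06 ± 0.40 and -5.20 ± 0.21. CA1, the abundant beta carbonic anhydrase of chloroplasts, was at 0.4999, 0.399 and 0.274 at 72 h, against 21.1, 11.7 and 18.7 at 0 h, a difference of -5.45 ± 0.37. The aldolase gene FBA5 differed by -5.63 ± 0.63. Genes of the root followed: the tonoplast aquaporin TIP2;3 (-5.87 ± 0.53), COBL9, needed for root hair growth (-5.70 ± 0.46), and XTH14, an enzyme that remodels cell wall xyloglucan (-5.55 ± 0.52). In these genes the times did not overlap, as in 25.1% of all loci on the side of the falls.

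Loci without a symbol had differences of the same size. AT1G26390 was at 6.92, 4.71 and 7.82 at 72 h, against 0.0662, 0.0164 and 0.0108 at 0 h, which is 279-fold higher at 72 h (log2 8.13 ± 0.62, adjusted p = 6.36e-05) and the largest rise among loci above background on all 6 arrays. AT4G36700 was at 6.23, 5.47 and 9.95 at 72 h, against 0.0402, 0.120 and 0.0450 at 0 h, a rise of 6.86 ± 0.45. AT1G12030 was at 7.94, 13.5 and 22.7 at 72 h, against 0.122, 0.457 and 0.245 at 0 h (5.81 ± 0.53). The other 7 of the 10 largest rises among loci without a symbol that were above background on all 6 arrays were AT1G26410 (6.17), AT2G38823 (5.93), AT3G28510 (5.46), AT1G66100 (5.37), AT1G09500 (5.35), AT1G14550 (5.32) and AT3G02480 (5.28). Replicates at 72 h were tight for AT1G14550, with 2.17, 2.64 and 1.78 at 72 h, against 0.0957, 0.0458 and 0.0364 at 0 h, and wide for AT1G66100, with 0.486, 2.90 and 0.846 at 72 h, against 0.0154, 0.0412 and 0.0265 at 0 h. No 72 h array of any of the 10 loci was as low as a 0 h array, as in 24.8% of all loci, and these 10 were picked for large rises. AT3G55790, above background on only 1 of the 0 h arrays, was at 1.64, 0.807 and 1.35 at 72 h, against 0.00996, 0.00113 and 0.00169 at 0 h.

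Among falls, AT5G52020 and AT3G09870 had the smallest adjusted p of the comparison. AT5G52020 was at 0.0255, 0.0207 and 0.0151 at 72 h, against 2.13, 2.33 and 1.95 at 0 h, and it differed by -6.74 ± 0.19 (adjusted p = 2.7e-06). AT3G09870, with SAUR48 among its synonyms in the reference table, was at 0.0151, 0.0104 and 0.0145 at 72 h, against 0.880, 1.00 and 1.19 at 0 h (-6.27 ± 0.19). AT1G33760 was at 0.0504, 0.0635 and 0.0455 at 72 h, against 2.33, 2.91 and 3.07 at 0 h (-5.71 ± 0.27). In these 3 loci the 0 h values of the replicates lay within a narrow band and the 72 h values were a small share of it. AT4G33720 was at 0.198, 0.334 and 0.106 at 72 h, against 12.9, 6.86 and 6.84 at 0 h, and AT4G27654 at 0.0871, 0.375 and 0.158 at 72 h, against 6.01, 7.65 and 6.98 at 0 h, with differences of -5.47 ± 0.52 and -5.31 ± 0.55. The others among the 10 largest falls of loci without a symbol that were above background on all 6 arrays were AT3G19430 (-5.72), AT1G14960 (-5.37), AT1G05240 (-5.33), AT2G39040 (-5.28) and AT4G26010 (-5.14). All of these falls and the rises above were called in each alternative that tested them, leaving out any 1 array included.

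**Figure D2:**
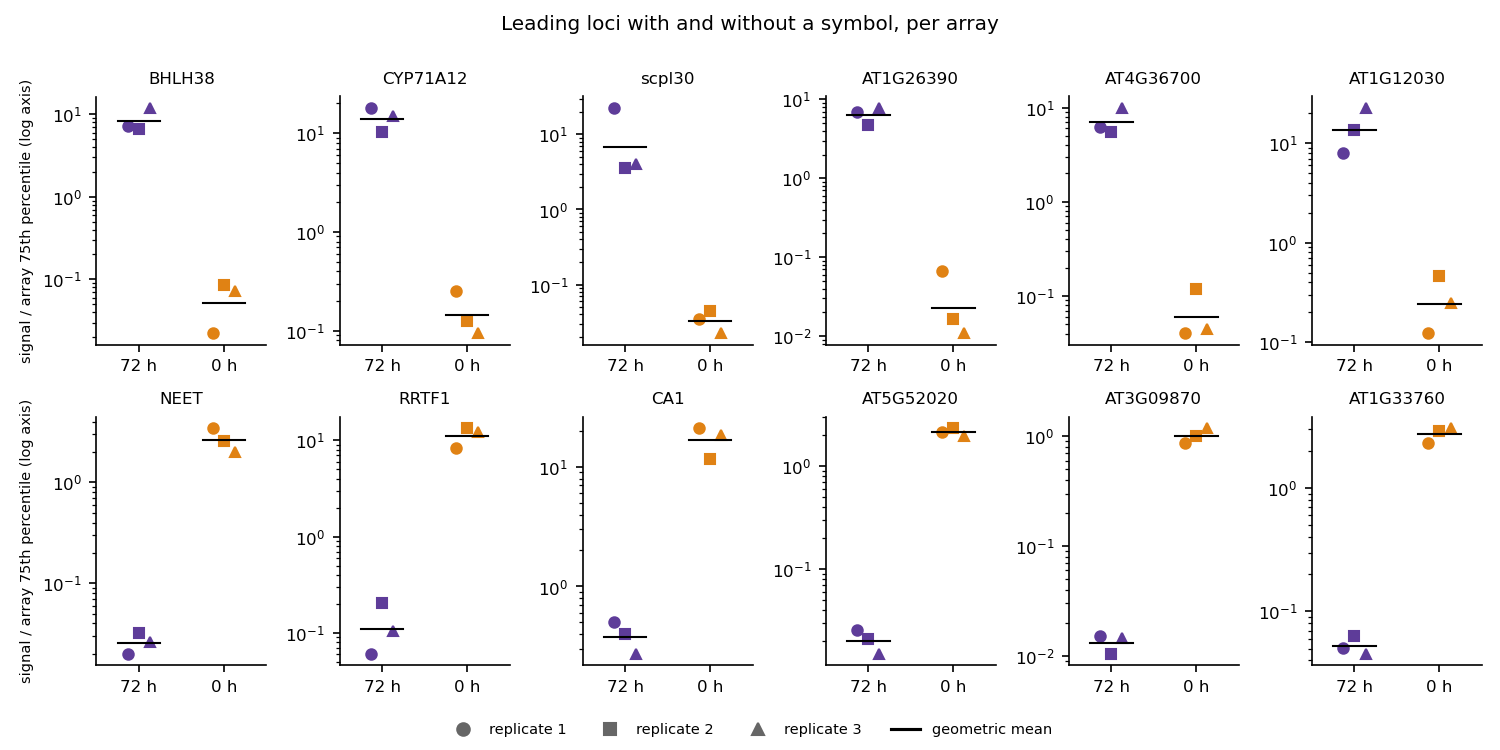
Relative signal of 12 leading loci on each array (processed signal over the array's 75th percentile, log axis), with 72 h on the left and 0 h on the right of each panel. Symbols mark replicates and lines the geometric mean of 3 arrays. The upper row shows rises, the lower row falls. The times do not overlap in any panel, and scpl30 has the widest spread at 72 h (22.6, 3.54 and 3.996).

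Some loci were above background at only 1 of the times. On all 72 h arrays and no 0 h array, 151 loci were above background, and 141 of them were called. The reverse held for 165 loci, all called. Their change is a lower bound, set by the lowest signal well above background on each array of the dim time. The largest bounds upward were for SUC7, a sucrose transporter gene (at least 78.5-fold), the alpha carbonic anhydrase ACA7 (at least 48.8-fold), AT5G46960 (at least 28.2-fold), AT2G29220, with the synonym LecRK-III.1, a lectin receptor kinase (at least 27.0-fold), and AT1G26400 (at least 25.5-fold). SUC7 was at 0.187, 0.334 and 1.79 at 72 h, against 0.00327, 0.00550 and 0.00255 at 0 h, so replicate 3 carried most of its signal at 72 h. Downward they were for AT5G57760 (at least 147-fold), AT1G19900 (at least 67.5-fold), AT5G46900 (at least 55.7-fold), the root hair gene RHS18 (at least 47.4-fold) and AT1G65570 (at least 45.3-fold). AT5G57760 was at 0.00287, 0.00198 and 0.00222 at 72 h, against 0.236, 0.995 and 1.41 at 0 h. Limma's adjusted p for these loci was between 1.55e-05 (ACA7) and 0.000266 (AT1G65570).

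Large changes also fell on neighbouring loci. Runs of at least 4 measured loci in chromosome order, all called in the same direction and at least 2-fold, were found 14 times among rises (67 loci, 40 of them without a symbol) and 9 times among falls (36 loci, 16 without). They hold 67 of the 1924 loci with such a rise and 36 of the 2474 with such a fall, counting loci placed on a nuclear chromosome. Whether runs were more frequent than by chance was not tested. The longest held 9 loci, from AT5G39090 to AT5G39190, where the germin-like genes GLP6 and GER2 lie among 7 loci without a symbol. Differences ran from 1.91 at AT5G39090 to 4.34 at GLP6, with a median of 2.95, and GER2 was at 0.379, 0.692 and 1.21 at 72 h, against 0.103, 0.102 and 0.0657 at 0 h. Of its neighbours, AT5G39080 before the run and CRR7 after it were lower (-1.001 and -2.53), while PMAT1 and ABCB27, just before AT5G39080, were higher (2.44 and 0.90). The 5 loci from AT1G26380 to AT1G26420 all lack a symbol and differed by 4.64, 8.13, 6.16, 6.17 and 3.79, where AT1G26400 was above background on no 0 h array. AT1G26380 was at 10.1, 4.75 and 7.97 at 72 h, against 0.199, 0.241 and 0.514 at 0 h. None of the 3 measured loci to each side rose by 2-fold. Between AT2G29460 and AT2G29500 lie the tau class glutathione transferases GSTU4 (3.99), GSTU2 (1.77) and GSTU1 (2.53), with GSTU3 (2.42) and AT2G29500 (1.26), of which GSTU3 and AT2G29500 were not called without slides 3 and 4 (adjusted p = 0.0713 and 0.0913). In the run from AT1G52080 to AT1G52140, AT1G52130 stood out with 5.72 ± 0.99, against a median of 1.53 for the 5 loci.

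Other rising runs joined genes of known families. RHA1A and RHA1B, which encode RING-type proteins, rose by 3.61 ± 0.24 and 1.56 ± 0.16, next to AT4G11340 at 6.02 ± 0.77, which was above background on 1 of the 0 h arrays. From AT4G23140 to AT4G23170 lie the cysteine-rich receptor-like kinases CRK6 (2.85), CRK7 (3.89) and CRK8 (1.85, not called with normexp correction, adjusted p = 0.267) and EP1 (1.22). The terpene synthase genes TPS12 (1.57) and TPS13 (2.36), both lost without slides 3 and 4 (adjusted p = 0.107 and 0.0624), alternate with the cytochromes P450 CYP71A19 (2.06) and CYP71A20 (2.196). CSLG1, CSLG2 and CSLG3, cellulose synthase-like genes, rose together with AT4G24015, by 1.46 to 4.75. Runs made only of loci without a symbol were AT3G50150 to AT3G50200 (5 loci, 1.27 to 4.35), AT5G37940 to AT5G37990 (5 loci, 1.24 to 2.31) and AT1G13520 to AT1G13550 (4 loci, 1.42 to 4.24). Near-identical copies in tandem can share a probe's signal, and the probe sequences were not used here, so how far such copies were told apart was not tested.

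Falling runs were shorter, at 4 loci each. From AT1G12070 to AT1G12100 the differences were -3.19, -1.38, -3.85 and -2.87, the last not called without slides 3 and 4 (adjusted p = 0.071), ELP being a gene for an extensin-like protein. ELP was at 0.786, 0.912 and 1.47 at 72 h, against 7.19, 14.8 and 29.7 at 0 h. AT1G12030, the rise of 5.81 described above, lies 3 measured loci before this falling run. CBF4 (-6.06) opens a run that ends with AT5G52020 (-6.74), with IMPA-8 and AT5G52010 between them at 1.08 or more in size. Other runs held PG2, a polygalacturonase, with BCA4 and 2 loci between them (-1.20 for PG2 and -1.27 for BCA4), TMK1, CMPG1, MMD1 and AT1G66180 (-1.03, -1.67, -1.35 and -2.15), and CRR41 with 3 loci that have no symbol (-1.96 to -1.46).

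**Figure D3:**
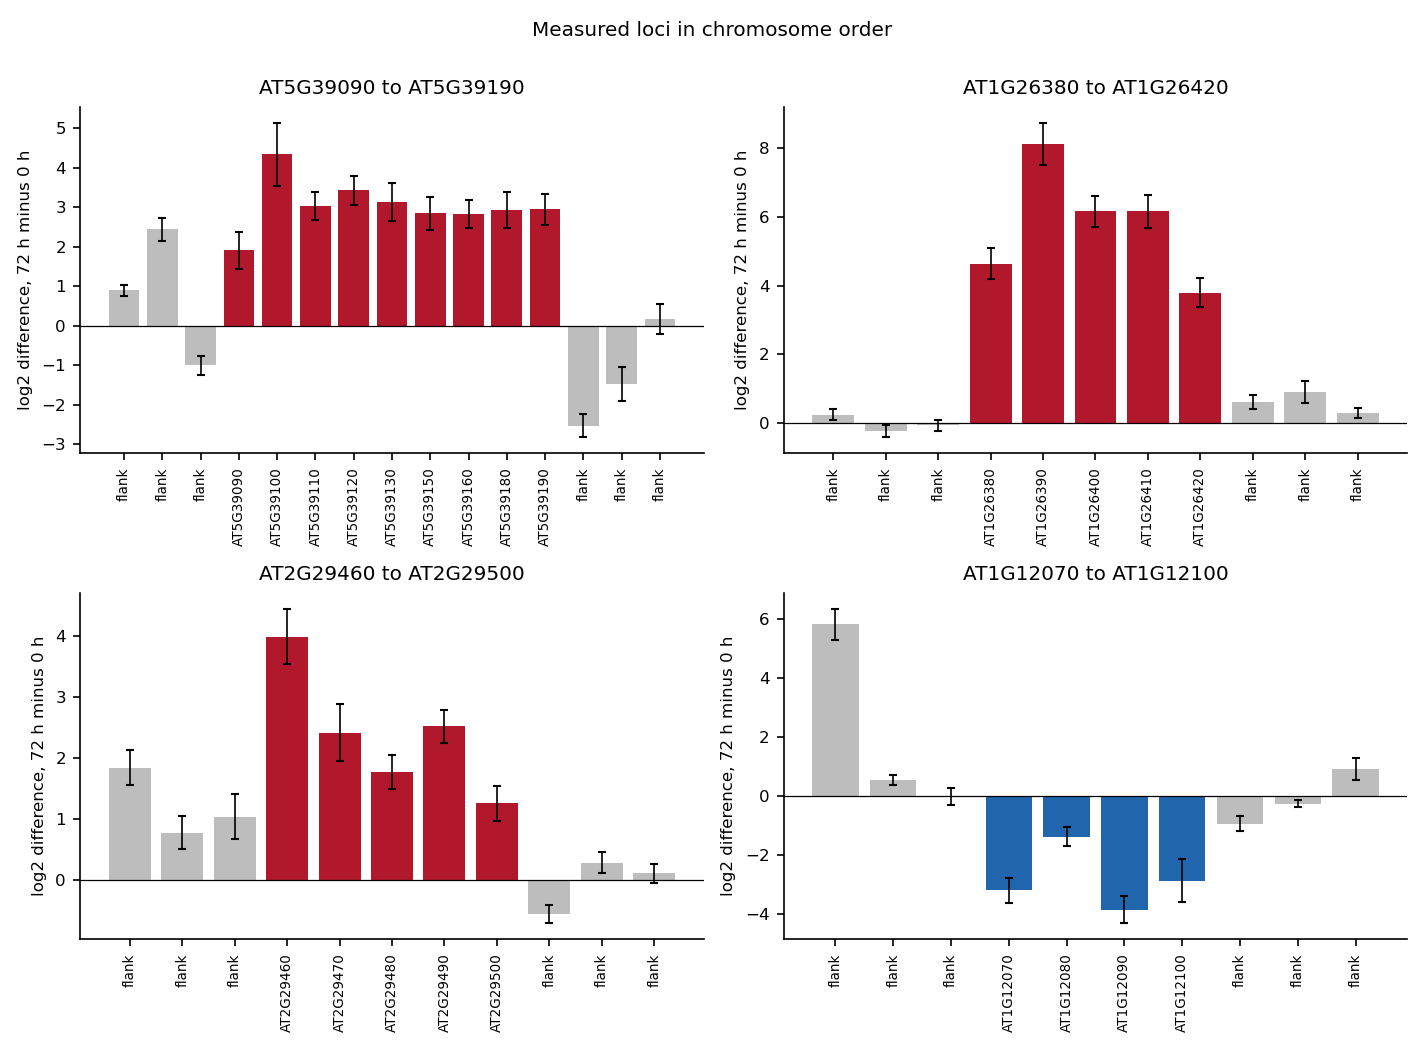
Difference between 72 h and 0 h (log2, bars, with the standard error of limma's fit) of measured loci in chromosome order, for 4 runs of neighbours. Red and blue bars are the members of a run, and grey bars are the 3 measured loci to each side, called or not. The 9 loci from AT5G39090 to AT5G39190 rose by 1.91 to 4.34, and AT1G12030 is the tall grey bar to the left of the falling run.

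Iron deficiency genes mostly rose, and genes of iron storage fell where they changed. In the iron deficiency list, 16 of 24 measured members rose (66.7%, against 16.9% of all loci tested) and 4 fell (16.7%, against 19.4%). The median difference was 1.48 (1.47 with slide as a block, 1.30 within slide 1 and 1.51 within slide 2, and 1.25 with members above background at only 1 time taken at their bound), and 15 to 18 rose and 3 to 4 fell when each array in turn was left out. BHLH100 was at 5.195, 6.61 and 11.2 at 72 h, against 0.00412, 0.0685 and 0.0315 at 0 h, where 1 of the 0 h arrays was not above background, and rose by 8.46 ± 0.88. BHLH39 was at 4.56, 4.73 and 8.36 at 72 h, against 0.0424, 0.129 and 0.0662 at 0 h (6.31 ± 0.41), and BHLH101, the fourth of this group of regulators, at 3.01, 3.60 and 4.94 at 72 h, against 0.147, 0.219 and 0.276 at 0 h (4.18 ± 0.28). All 72 h arrays exceeded all 0 h arrays in each of them, as in 24.8% of all loci. Rises were also called for NAS4, which makes the metal chelator nicotianamine (3.41 ± 0.17), BTS, an E3 ligase that restrains the response (2.64 ± 0.23), F6H1 of coumarin synthesis (2.65 ± 0.40), ORG1 (2.61 ± 0.29), ZIF1, a transporter of the vacuole (2.47 ± 0.25), FRO3, a ferric reductase of mitochondria (2.07 ± 0.24), and OPT3, which loads iron into the phloem (1.31 ± 0.16). The genes of uptake itself did not pass: IRT1, the main iron transporter of the root surface, was at 0.0492, 0.0797 and 0.190 at 72 h, against 0.0768, 0.0342 and 0.0240 at 0 h (1.19 ± 0.57, adjusted p = 0.142), and FRO2, the reductase that serves it, at 0.0339, 0.0598 and 0.230 at 72 h, against 0.0712, 0.0584 and 0.0447 at 0 h (0.44 ± 0.64). FIT, the partner of the BHLH regulators, differed by -1.46 ± 0.43, and its call was lost without 0 h replicate 1, 72 h replicate 2 or 72 h replicate 3 (adjusted p 0.0508 to 0.0945). Falls were called for NAS3 (-3.31 ± 0.65), IRT2 (-2.45 ± 0.30) and FPN2 (-2.08 ± 0.33).

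Of genes for iron storage and iron repletion, none of 10 measured members rose (against 16.9% of all loci tested) and 7 fell (70.0%, against 19.4%), with a median of -1.96 (-1.88 with slide as a block, -1.83 within slide 1 and -2.08 within slide 2), and 0 rose and 6 to 8 fell when each array in turn was left out. All 4 ferritins, proteins that hold iron in plastids, were lower. FER1 was at 0.566, 0.332 and 0.415 at 72 h, against 4.21, 3.41 and 3.44 at 0 h (-3.10 ± 0.36), FER4 at 0.189, 0.171 and 0.120 at 72 h, against 1.53, 2.46 and 3.63 at 0 h (-3.93 ± 0.35), and FER3 and FER2 differed by -2.18 ± 0.23 and -1.74 ± 0.23. The vacuolar iron transporter-like gene VTL1 differed by -2.55 ± 0.48. The times did not overlap in these genes or in NEET, as in 25.1% of all loci on the side of the falls. YSL1 and YSL3, transporters of metal chelates, were at -1.06 and -0.40 and were not called.

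Copper genes moved in both directions. When copper is short, the factor SPL7 is known to raise copper transporters and the iron superoxide dismutase FSD1, and the superoxide dismutases that need copper, CSD1 and CSD2, fall. At 72 h, 5 of 14 measured members rose (35.7%, against 16.9% of all loci tested) and 6 fell (42.9%, against 19.4%), with a median of -0.51 (-0.49 with slide as a block, -0.69 within slide 1 and -0.40 within slide 2). CSD1 was at 34.1, 33.1 and 34.8 at 72 h, against 8.48, 6.45 and 11.3 at 0 h (1.996 ± 0.20), CSD2 at 19.3, 17.4 and 17.6 at 72 h, against 5.29, 5.60 and 5.55 at 0 h (1.73 ± 0.19) and their copper chaperone CCS rose by 1.71 ± 0.17. FSD1 was at 3.94, 6.84 and 4.01 at 72 h, against 38.6, 32.2 and 43.6 at 0 h (-2.99 ± 0.32). Every 72 h value of CSD1, CSD2 and CCS lay above the 0 h values (as in 24.8% of all loci), and every one of FSD1 below (as in 25.1%). The transporter genes ZIP2, COPT2 and COPT1 differed by -3.61 ± 0.29, -1.35 ± 0.21 and -0.81 ± 0.16, and the reductase gene FRO4 by -1.72 ± 0.34. HMA5, a copper-exporting ATPase of roots, rose by 1.72 ± 0.23, and ARPN, a small copper protein of the cell wall, by 2.54 ± 0.31. SPL7 itself was not called (0.15 ± 0.11). When each array in turn was left out, 5 rose and 5 to 7 fell.

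Genes of sulfur starvation were mostly higher: 12 of 14 measured members rose (85.7%, against 16.9% of all loci tested) and 1 fell (7.14%, against 19.4%). The median was 2.08 (2.04 with slide as a block, 2.27 within slide 1 and 1.63 within slide 2, and 2.08 with members above background at only 1 time taken at their bound), and 11 to 12 rose and 1 fell when each array in turn was left out. GGCT2;1, which breaks down glutathione, was at 1.44, 3.45 and 2.98 at 72 h, against 0.0759, 0.127 and 0.0977 at 0 h (4.65 ± 0.47). SDI1, a repressor of glucosinolate synthesis under low sulfur, was at 9, 13.3 and 10.7 at 72 h, against 0.426, 1.42 and 0.549 at 0 h (3.97 ± 0.40), and LSU1, a small protein named for low sulfur, rose by 3.78 ± 0.43. The beta-glucosidase BGLU28 rose by 4.56 ± 0.84 and LSU2 by 2.18 ± 0.32. Of the adenosine phosphosulfate reductases, the entry to sulfate reduction, APR1 rose by 2.11 ± 0.21 and APR3 by 1.71 ± 0.29, and APR2 was not called (0.35 ± 0.18). SULTR4;2, which empties sulfate from vacuoles, rose by 2.23 ± 0.32. SULTR1;1, the root transporter of high affinity, went against the list: it was above background on no 72 h array, with 0.00113, 0.00115 and 0.00110 at 72 h, against 0.0447, 0.0176 and 0.0130 at 0 h, and was at least 4.61-fold lower.

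Alternative respiration and the detoxifying enzymes that accompany it were higher. When the cytochrome pathway of mitochondria is impaired, plants are known to induce alternative oxidases and dehydrogenases through NAC factors such as NAC013. Of these genes, 8 of 9 measured members rose (88.9%, against 16.9% of all loci tested) and none fell (against 19.4%), with a median of 2.22 (1.92 with slide as a block, 1.78 within slide 1 and 2.19 within slide 2), and the same counts were found without any 1 array. AOX1D was at 5.04, 5.09 and 8.47 at 72 h, against 0.0937, 0.233 and 0.118 at 0 h (5.45 ± 0.47). AOX1A, the main alternative oxidase, was at 3.37, 4.50 and 8.10 at 72 h, against 0.977, 1.24 and 2.29 at 0 h (1.82 ± 0.40). The dehydrogenases NDA2 and NDB2 rose by 2.22 ± 0.27 and 1.83 ± 0.12, NAC013 by 2.17 ± 0.29, CYP81D8 by 4.26 ± 0.37, the glucosyltransferase UGT74E2 by 3.38 ± 0.67 and the sulfotransferase SOT12 by 2.38 ± 0.40. The outer membrane ATPase OM66, often induced with them, was at 3.67, 5.70 and 6.45 at 72 h, against 8.47, 8.997 and 6.49 at 0 h and was not called (-0.63 ± 0.29).

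Glutathione transferases join glutathione to reactive compounds, and of 45 loci so named 20 rose (44.4%, against 16.9%) and 5 fell (11.1%, against 19.4%). Their median was 0.78 (0.73 with slide as a block, 0.53 within slide 1 and 0.86 within slide 2), and 17 to 22 rose and 4 to 6 fell when each array in turn was left out. GSTU12 was at 12.2, 6.40 and 9.06 at 72 h, against 0.262, 0.369 and 0.392 at 0 h (4.73 ± 0.46) and GSTU25 at 13.2, 13.3 and 22.4 at 72 h, against 1.54, 0.892 and 0.627 at 0 h (4.05 ± 0.34). GSTU10, GSTU11, GSTU22 and GSTU24 rose by 3.66, 3.61, 3.49 and 3.41. GSTU28 went down, with 0.00946, 0.0190 and 0.0179 at 72 h, against 0.496, 0.244 and 0.324 at 0 h (-4.52 ± 0.32). No values of the 2 times overlapped in GSTU12, GSTU25 or GSTU28, as in 24.8% of all loci for rises and 25.1% for falls. Thioredoxins and glutaredoxins, which pass on reducing power, were more often lower: 6 of 46 rose (13%, against 16.9%) and 20 fell (43.5%, against 19.4%). Their median was -0.18 (-0.16 with slide as a block, -0.10 within slide 1 and -0.20 within slide 2), and it was 0.05 in the deposited value table. Without slides 3 and 4, 11 fell. The falls with the largest size were of plastid proteins, THM1 (-1.55 ± 0.14) and TRXF1 (-1.55 ± 0.17), which regulate photosynthetic enzymes. TRX5, a thioredoxin of the h type that is found in the cytosol, was at 47.1, 43.6 and 31.3 at 72 h, against 9.80, 9.15 and 7.42 at 0 h (2.197 ± 0.24), and its relative TH7 rose by 2.104 ± 0.29.

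Indole defence genes rose together. In this pathway CYP79B2 and CYP79B3 turn tryptophan into indole acetaldoxime, CYP71A12 and CYP71A13 dehydrate it, and CYP71B15 makes camalexin, an antimicrobial compound. Here 11 of 13 measured members rose (84.6%, against 16.9% of all loci tested) and none fell (against 19.4%), with a median of 1.83 (2.27 with slide as a block, 2.42 within slide 1 and 1.75 within slide 2). CYP71A13 was at 2.36, 1.46 and 3.48 at 72 h, against 0.0221, 0.0807 and 0.0736 at 0 h (5.49 ± 0.57), CYP71B15 at 31.3, 21.4 and 28.1 at 72 h, against 0.816, 2.41 and 2.30 at 0 h (4.01 ± 0.41) and CYP79B2 rose by 1.74 ± 0.22. NAC042, a factor linked to camalexin synthesis, was at 7.26, 4.14 and 5.11 at 72 h, against 0.192, 0.137 and 0.0806 at 0 h (5.38 ± 0.40). At 72 h all arrays were above the 0 h arrays in these genes, as in 24.8% of all loci. MYB122 rose by 2.26 ± 0.42, CYP81F2 by 1.83 ± 0.30 and GGP1 by 0.92 ± 0.19, whereas WRKY33 and MYB51, regulators of the pathway, were not called (-0.25 ± 0.18 and -0.43 ± 0.24). CYP71A12 and CYP71A13 are close copies, so part of their signal may be shared.

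Genes of salicylic acid synthesis and of its defence proteins were higher, whereas the signalling genes EDS1, PAD4 and NPR1 did not pass the test. In systemic acquired resistance, 12 of 20 measured members rose (60.0%, against 16.9% of all loci tested) and 2 fell (10%, against 19.4%), with a median of 1.32 (1.24 with slide as a block, 1.19 within slide 1 and 0.97 within slide 2), and 10 to 13 rose and 0 to 2 fell when each array in turn was left out. PBS3, which joins isochorismate and glutamate in salicylic acid synthesis, was at 3.14, 3.37 and 5.07 at 72 h, against 0.176, 0.599 and 0.357 at 0 h (3.49 ± 0.41). ICS1, the isochorismate synthase, rose by 1.32 ± 0.26, the exporter EDS5 by 1.21 ± 0.18 and EPS1 by 1.69 ± 0.28. FMO1, which makes N-hydroxypipecolic acid, the mobile signal, was at 7.68, 4.66 and 7.71 at 72 h, against 1.04, 0.545 and 0.501 at 0 h (3.31 ± 0.49). Enzymes that hydroxylate or conjugate salicylic acid rose too: DLO1 by 3.79 ± 0.44, DMR6 by 1.45 ± 0.19 and UGT76B1 by 2.47 ± 0.28. Of the defence proteins, PR2 was at 11.1, 27.8 and 13.9 at 72 h, against 0.393, 1.99 and 1.02 at 0 h (4.13 ± 0.61) and PR5 rose by 2.65 ± 0.46, a call lost without slides 3 and 4 (adjusted p = 0.0515). PR1 was at 1.17, 0.576 and 0.711 at 72 h, against 0.0130, 0.329 and 0.124 at 0 h. Its difference was 3.27 ± 1.06 (adjusted p = 0.04), but the call was lost without 72 h replicate 1, 48 h replicate 2, 72 h replicate 2, 0 h replicate 3, 48 h replicate 3 or 72 h replicate 3 (adjusted p 0.0507 to 0.108). The falls, of NPR3 (-0.62 ± 0.18) and CBP60G (-0.66 ± 0.19), were lost without 0 h replicate 1, 72 h replicate 1, 0 h replicate 2 or 72 h replicate 3 (adjusted p 0.0524 to 0.0861) and without 72 h replicate 1, 0 h replicate 2, 72 h replicate 2 or 0 h replicate 3 (adjusted p 0.0695 to 0.0902). EDS1, PAD4 and NPR1 were not called (0.26, 0.12 and 0.23).

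Receptor kinases of lectin, cysteine-rich and related types, which sit in the plasma membrane, were tested as 137 loci, of which 42 rose (30.7%, against 16.9%) and 26 fell (19.0%, against 19.4%). Their median was 0.23 (0.16 with slide as a block, 0.22 within slide 1 and 0.05 within slide 2, and 0.23 with members above background at only 1 time taken at their bound). The number that fell was 16 without 72 h replicate 3, 28 rose and 15 fell without slides 3 and 4, and the median was -0.03 with normexp correction. CRK20 was at 1.18, 0.534 and 0.889 at 72 h, against 0.0153, 0.0338 and 0.0340 at 0 h (4.99 ± 0.42). CRK36 and FRK1 rose by 3.60 and 3.14, and CRK37 was above background on no 0 h array and at least 9.52-fold higher (not called with normexp correction, adjusted p = 0.0638). AT2G29250, next to LecRK-III.1, rose by 4.86 (lost without slides 3 and 4, adjusted p = 0.0928). Below background at 72 h were AT5G59260, of the same lectin family, at least 3.16-fold lower, and AT3G46760, at least 2.72-fold lower.

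Of 15 core genes of the response to low oxygen 10 rose (66.7%, against 16.9%) and 1 fell (6.67%, against 19.4%), with a median of 1.18 (1.12 with slide as a block, 1.15 within slide 1 and 0.74 within slide 2). This count rested on single arrays: 4 rose without 72 h replicate 2 and 4 without 72 h replicate 3, and 2 rose and 1 fell without slides 3 and 4. HRA1, a repressor of the response, was at 31.1, 32.1 and 35.5 at 72 h, against 11.2, 14.5 and 14.4 at 0 h (1.31 ± 0.14). The sucrose synthases SUS1 and SUS4, which feed glycolysis, rose by 1.56 ± 0.23 and 2.52 ± 0.48, and the alcohol dehydrogenase ADH1 was at 13.3, 21.9 and 31.2 at 72 h, against 3.68, 8.56 and 6.14 at 0 h (1.85 ± 0.37). Slide as a block ended the call of SUS4 (adjusted p = 0.0517). Leaving out slides 3 and 4 ended those of SUS4 (adjusted p = 0.0664) and ADH1 (adjusted p = 0.065). Pyruvate decarboxylase genes PDC1 and PDC2 were not called (1.33 ± 0.54 and 0.36 ± 0.20), and SRO5 differed by -1.47 ± 0.30. The 0 h plants came from the same shaken liquid culture.

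Ethylene genes were mostly lower where they changed. Ethylene binds copper-containing receptors, and a set of target genes, among them some receptors, rises with the hormone. Here 1 of 20 measured members rose (5%, against 16.9% of all loci tested) and 9 fell (45.0%, against 19.4%), with a median of -0.34 (-0.43 with slide as a block, -0.41 within slide 1 and -0.47 within slide 2), and 1 rose and 7 to 10 fell when each array in turn was left out. ARGOS, which promotes organ growth and lowers ethylene sensitivity, was at 0.0144, 0.0237 and 0.0252 at 72 h, against 0.226, 0.261 and 0.313 at 0 h (-3.69 ± 0.31). The receptor ERS2 was at 0.189, 0.215 and 0.218 at 72 h, against 0.662, 0.716 and 0.793 at 0 h (-1.80 ± 0.16), and ERS1 differed by -0.73 ± 0.13. EBF2, an F-box protein that removes the factor EIN3 and is induced by ethylene, was at 0.348, 0.294 and 0.348 at 72 h, against 1.00, 1.06 and 1.07 at 0 h (-1.67 ± 0.15). In these genes the times did not overlap, as in 25.1% of all loci for falls. The receptors ETR1, ETR2 and EIN4 were not called (0.08, -0.24 and 0.33), nor were EIN2, EIN3 and ERF1 (0.13, -0.01 and -0.03). The 1 rise was that of HLS1, which shapes the apical hook (0.90 ± 0.16).

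Other hormone lists changed in part. In the cytokinin list, 1 of 11 measured members rose (9.09%, against 16.9% of all loci tested) and 4 fell (36.4%, against 19.4%), with a median of -0.51 (-0.67 with slide as a block, -0.50 within slide 1 and -0.63 within slide 2). The type A response regulator ARR3 was at 0.00683, 0.00470 and 0.00606 at 72 h, against 0.191, 0.110 and 0.114 at 0 h (-4.53 ± 0.30) and ARR16 at 0.0388, 0.0245 and 0.0293 at 72 h, against 0.303, 0.445 and 0.863 at 0 h (-4.01 ± 0.39). Both were lower on every 72 h array than on any 0 h array, as in 25.1% of all loci. ARR4 differed by -0.79 ± 0.14, and ARR7, ARR8 and ARR9 were not called. The rise of ARR6 (0.53 ± 0.13) was lost without 72 h replicate 3 (adjusted p 0.0579). Among genes of gibberellin synthesis, breakdown and reception, 4 of 8 measured members rose (50%, against 16.9% of all loci tested) and 1 fell (12.5%, against 19.4%), with a median of 0.81 (0.63 with slide as a block, 0.41 within slide 1 and 0.85 within slide 2). The receptors GID1A and GID1B rose by 0.86 ± 0.17 and 0.99 ± 0.15 and the synthesis gene GA20OX2 by 1.28 ± 0.23. Genes that inactivate gibberellin went both ways. GA2OX6 was at 0.749, 0.595 and 0.659 at 72 h, against 2.05, 2.73 and 4.05 at 0 h (-2.09 ± 0.31), and GA2OX8 rose by 0.99. The call of GA2OX8 was lost with slide as a block (adjusted p = 0.168) and without 72 h replicate 2 or 72 h replicate 3 (adjusted p = 0.0706 and 0.0911). GA20OX2 was not called with normexp correction (adjusted p = 0.138), nor when slides 3 and 4 were left out (adjusted p = 0.0566), and each left 2 rises in the list. Of 8 genes of brassinosteroid synthesis and breakdown 1 rose (12.5%, against 16.9%) and 2 fell (25%, against 19.4%). The median was 0.07 (0.09 with slide as a block, -0.02 within slide 1 and 0.15 within slide 2). None rose without 72 h replicate 2, 0 h replicate 3 or 72 h replicate 3, 2 rose without 72 h replicate 1 and 3 without 0 h replicate 1, and 1 fell in each of these cases and without 48 h replicate 1. BR6OX1, of the last steps of synthesis, differed by -1.57 ± 0.37, a call lost without slides 3 and 4 (adjusted p = 0.0651). The other fall was that of the breakdown gene BAS1 (-0.69). Its call was lost with each left-out array that left 1 fall (adjusted p 0.054 to 0.123). Slide as a block ended it too (adjusted p = 0.0529).

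Genes of cell division were little changed. For mitosis, 2 of 19 measured members rose (10.5%, against 16.9% of all loci tested) and none fell (against 19.4%), with a median of 0.23 (0.32 with slide as a block, -0.04 within slide 1 and 0.59 within slide 2). The rises, CYCB1;1 (0.91 ± 0.28) and AUR3 (0.99 ± 0.29), were lost without 0 h replicate 1, 72 h replicate 1, 0 h replicate 2, 72 h replicate 2 or 72 h replicate 3 (adjusted p 0.063 to 0.107) and without 0 h replicate 1, 72 h replicate 1, 0 h replicate 2 or 72 h replicate 2 (adjusted p 0.0654 to 0.0954). The deposited value table gave 8 rises. Of 9 genes of DNA replication 1 rose (11.1%, against 16.9%) and none fell (against 19.4%). The rise was that of TSO2, a ribonucleotide reductase subunit that also serves DNA repair. TSO2 was at 27.0, 25.4 and 28.1 at 72 h, against 7.29, 12.4 and 15.7 at 0 h (1.26 ± 0.27). The MCM helicase subunits and CDC45 lay between -0.23 and 0.15 with none called. The median of that list was 0.03, and below 0 without 0 h replicate 1 (-0.16), without 72 h replicate 2 (-0.13) and with normexp correction (-0.02). In the DNA damage list, 4 of 9 measured members rose (44.4%, against 16.9% of all loci tested) and none fell (against 19.4%), with a median of 0.44 (0.60 with slide as a block, 0.95 within slide 1 and 0.55 within slide 2), and 3 to 6 rose and 0 fell when each array in turn was left out. SMR7, an inhibitor of cyclin-dependent kinases, was at 0.968, 0.520 and 0.600 at 72 h, against 0.145, 0.127 and 0.169 at 0 h (2.199 ± 0.23), its relative SMR5 rose by 1.38 ± 0.29 and SOG1, the factor that governs the response, by 0.67 ± 0.16. SMR5 was lost with slide as a block (adjusted p = 0.0516), SMR5 and SOG1 were lost without slides 3 and 4 (adjusted p = 0.0901 and 0.0764), and 1 rose and 0 fell without slides 3 and 4. BRCA1 and WEE1 were not called (0.33 and 0.44).

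Autophagy genes, which serve the recycling of cell contents, were slightly higher at most: 6 of 17 measured members rose (35.3%, against 16.9% of all loci tested) and none fell (against 19.4%), with a median of 0.29 (0.28 with slide as a block, 0.16 within slide 1 and 0.30 within slide 2). The largest difference was 0.69, and no rise was called without 72 h replicate 1 or without 72 h replicate 3, 1 without 0 h replicate 2 or 0 h replicate 3, and 3 without 48 h replicate 1, 48 h replicate 2 or 72 h replicate 2. With slide as a block 1 rose, and 0 rose and 0 fell without slides 3 and 4. Of 31 proteasome genes 4 rose (12.9%, against 16.9%) and none fell (against 19.4%). Only 1 rose without 72 h replicate 2 or 72 h replicate 3, and 2 without 48 h replicate 2. Without slides 3 and 4, 1 rose. PA200, a cap protein of the proteasome, was at 3.55, 3.05 and 4.12 at 72 h, against 1.78, 1.84 and 1.60 at 0 h (1.03 ± 0.15) and remained called in each alternative.

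Genes of plastid synthesis were mostly lower where they changed. For starch, none of 15 measured members rose (against 16.9% of all loci tested) and 9 fell (60.0%, against 19.4%), with a median of -0.61 (-0.50 with slide as a block, -0.43 within slide 1 and -0.56 within slide 2). ADG2, a subunit of the ADP-glucose pyrophosphorylase that commits carbon to starch, was at 3.00, 2.89 and 2.82 at 72 h, against 9.55, 9.16 and 9.46 at 0 h (-1.69 ± 0.16). The starch synthase SS1 and the disproportionating enzyme DPE1 differed by -1.07 ± 0.17 and -0.92 ± 0.17, ADG1 by -1.04 ± 0.21, and the water dikinase SEX1, which opens starch for breakdown, by -0.59 ± 0.12. Without 72 h replicate 1 there were 2 rises and 8 falls, and 0 rose and 3 fell without slides 3 and 4, ADG1 and SEX1 being among those lost (adjusted p = 0.0904 and 0.0506). In plastid fatty acid synthesis, 1 of 13 rose (7.69%, against 16.9%) and 8 fell (61.5%, against 19.4%). The median was -0.75 (-0.65 with slide as a block, -0.50 within slide 1 and -0.54 within slide 2). The acyl carrier protein ACP4 was at 8.01, 5.98 and 6.03 at 72 h, against 24.8, 26.8 and 38.8 at 0 h (-2.16 ± 0.19), and BCCP1 and CAC3, subunits of acetyl-CoA carboxylase, differed by -0.90 ± 0.15 and -0.86 ± 0.16. With slide as a block 4 fell, and 0 rose and 3 fell without slides 3 and 4. The 1 rise, of the thioesterase gene FATA (0.74 ± 0.23), was lost without 0 h replicate 2, 72 h replicate 2, 0 h replicate 3 or 72 h replicate 3 (adjusted p 0.07 to 0.108).

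In the plastid isoprenoid and carotenoid list, 2 of 18 measured members rose (11.1%, against 16.9% of all loci tested) and 15 fell (83.3%, against 19.4%), with a median of -0.91 (-0.81 with slide as a block, -0.73 within slide 1 and -0.86 within slide 2), and 0 to 2 rose and 13 to 16 fell when each array in turn was left out. DXS, the first enzyme of the methylerythritol phosphate pathway, was at 8.26, 6.63 and 6.86 at 72 h, against 17.8, 15.3 and 20.4 at 0 h (-1.29 ± 0.16), and its later enzymes MCT, CMK and HDS differed by -1.79 ± 0.29, -1.25 ± 0.21 and -0.71 ± 0.12. PSY, the entry to carotenoids, differed by -0.90 ± 0.20, and PDS, ZDS and CRTISO, which desaturate and isomerise its product, by -1.04 ± 0.18, -0.75 ± 0.12 and -0.92 ± 0.19. The hydroxylase LUT1 and the cyclase LUT2, both for lutein, were at 0.531, 0.442 and 0.426 at 72 h, against 1.27, 1.71 and 2.42 at 0 h for LUT1 and differed by -1.90 ± 0.23 and -1.90 ± 0.26. In DXS, PSY and LUT1 each 72 h array lay below each 0 h array, as in 25.1% of all loci. The rises of BCH1 (1.13 ± 0.36) and BCH2 (1.08 ± 0.35), hydroxylases toward zeaxanthin, were lost without 0 h replicate 1, 48 h replicate 1, 72 h replicate 1, 0 h replicate 2, 0 h replicate 3 or 72 h replicate 3 (adjusted p 0.0517 to 0.118) and without 0 h replicate 1, 0 h replicate 2, 72 h replicate 2, 0 h replicate 3, 48 h replicate 3 or 72 h replicate 3 (adjusted p 0.0581 to 0.132).

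The cytosolic mevalonate and sterol list differed less, at a median of -0.14 (-0.16 with slide as a block, -0.29 within slide 1 and 0.01 within slide 2). None of 17 rose (against 16.9%) and 4 fell (23.5%, against 19.4%). Of the list, 2 fell without 72 h replicate 1, 72 h replicate 2 or 72 h replicate 3, 1 with slide as a block and none without slides 3 and 4. Its median was 0.06 with quantile normalization and 0.09 in the deposited value table. The mevalonate kinase MK differed by -0.92 ± 0.20 (lost without slides 3 and 4, adjusted p = 0.0546), whereas the reductase HMG2, the synthase HMGS and the sterol methyltransferases SMT1 and SMT2 were not called (0.17, 0.17, -0.03 and -0.13).

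Genes of fatty acid breakdown were higher where they changed. For beta-oxidation and the glyoxylate cycle, 7 of 13 measured members rose (53.8%, against 16.9% of all loci tested) and none fell (against 19.4%), with a median of 0.57 (0.51 with slide as a block, 0.60 within slide 1 and 0.37 within slide 2), and 6 to 8 rose and 0 fell when each array in turn was left out. ICL, the isocitrate lyase of the glyoxylate cycle, was at 0.3001, 0.102 and 0.190 at 72 h, against 0.0251, 0.0122 and 0.0153 at 0 h (3.42 ± 0.44), and its partner MLS, the malate synthase, at 0.523, 0.486 and 0.485 at 72 h, against 0.233, 0.190 and 0.180 at 0 h (1.31 ± 0.25). The acyl-CoA oxidase ACX1 rose by 1.28 ± 0.20, the acyl-CoA synthetase LACS7 by 1.19 ± 0.14 and PCK1, which leads on to sugar, by 1.06 ± 0.19. Of 15 genes of amino acid breakdown only MGL, a methionine lyase, rose (6.67%, against 16.9%) and only THA1, a threonine aldolase, fell (6.67%, against 19.4%). MGL was at 27.6, 23.6 and 21.1 at 72 h, against 3.01, 2.79 and 1.94 at 0 h (3.24 ± 0.31) and THA1 at 0.0910, 0.0209 and 0.0339 at 72 h, against 0.142, 0.218 and 0.411 at 0 h (-2.54 ± 0.53). THA1 did not pass with slide as a block (adjusted p = 0.0646), nor when slides 3 and 4 were left out (adjusted p = 0.106). The median of the list was 0.03, and it was -0.10 without 0 h replicate 1 and -0.33 without 72 h replicate 1, where 3 fell, and 2 rose without 0 h replicate 1. The sugar-repressed asparagine synthetase ASN1 was at 12.2, 4.11 and 4.26 at 72 h, against 2.07, 2.96 and 4.55 at 0 h, with times that overlapped, and was not called (0.98 ± 0.46).

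Barriers of the root and shoot surface differed. Suberin is a polyester laid down in the endodermis, and of its genes 9 of 13 measured members rose (69.2%, against 16.9% of all loci tested) and 1 fell (7.69%, against 19.4%), with a median of 1.28 (1.23 with slide as a block, 0.91 within slide 1 and 1.19 within slide 2), and 6 to 10 rose and 0 to 1 fell when each array in turn was left out. The fatty acyl reductases FAR4 and FAR5 were at 1.12, 0.756 and 0.761 at 72 h, against 0.390, 0.211 and 0.151 at 0 h for FAR4 and 0.736, 0.836 and 0.559 at 72 h, against 0.228, 0.213 and 0.161 at 0 h for FAR5, with differences of 1.90 ± 0.34 and 1.82 ± 0.27. The transporter gene ABCG20 rose by 1.49 ± 0.29, the hydroxylases CYP86A1 and CYP86B1 by 1.28 ± 0.25 and 1.40 ± 0.28, and the acyltransferase GPAT5 by 1.17 ± 0.23. Of the list, 5 rose and 0 fell without slides 3 and 4, with CYP86A1 among those lost (adjusted p = 0.0595). In each of the suberin genes named so far a 72 h array was never below a 0 h array, as in 24.8% of all loci. The fall of KCS20 (-0.43 ± 0.14) was lost without 0 h replicate 1, 48 h replicate 1, 0 h replicate 2, 48 h replicate 2, 72 h replicate 2, 0 h replicate 3, 48 h replicate 3 or 72 h replicate 3 (adjusted p 0.0552 to 0.138). MYB41, which can switch on suberin genes, was not called (0.00 ± 0.31).

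For the Casparian strip, the earlier barrier of the endodermis, 1 of 9 measured members rose (11.1%, against 16.9% of all loci tested) and 3 fell (33.3%, against 19.4%), with a median of -0.76 (-0.63 with slide as a block, -1.05 within slide 1 and -0.19 within slide 2). CASP5 was at 0.0167, 0.0103 and 0.00617 at 72 h, against 0.158, 0.0757 and 0.125 at 0 h (-3.48 ± 0.42) and CASP4 differed by -1.79 ± 0.39, both scaffold proteins of the strip, and CASP1 (-1.18 ± 0.40) was lost without 0 h replicate 1, 48 h replicate 1, 72 h replicate 2, 0 h replicate 3, 48 h replicate 3 or 72 h replicate 3 (adjusted p 0.0599 to 0.152). MYB36, the factor that drives these genes, was at 1.05, 1.53 and 1.23 at 72 h, against 0.708, 0.373 and 0.415 at 0 h (1.39 ± 0.27). Without slides 3 and 4, CASP4 (adjusted p = 0.092) and MYB36 (adjusted p = 0.061) were lost and 1 fall was left. In cutin and wax synthesis, which coats the shoot, none of 18 measured members rose (against 16.9% of all loci tested) and 11 fell (61.1%, against 19.4%), with a median of -0.83 (-0.85 with slide as a block, -0.68 within slide 1 and -0.88 within slide 2), and 0 rose and 7 to 15 fell when each array in turn was left out, the 7 without 72 h replicate 2, while 0 rose and 5 fell without slides 3 and 4. CER4, which makes wax alcohols, was at 0.0344, 0.0446 and 0.0540 at 72 h, against 0.283, 0.0978 and 0.108 at 0 h (-1.72 ± 0.37). GPAT8 and GPAT4 of cutin synthesis differed by -1.63 ± 0.34 and -0.85 ± 0.12, BDG1 by -1.19 ± 0.25, and MYB96, an activator of wax genes, by -1.60 ± 0.35. The wax genes CER1 and WSD1 were not called (-1.03 and -0.06).

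**Figure D4:**
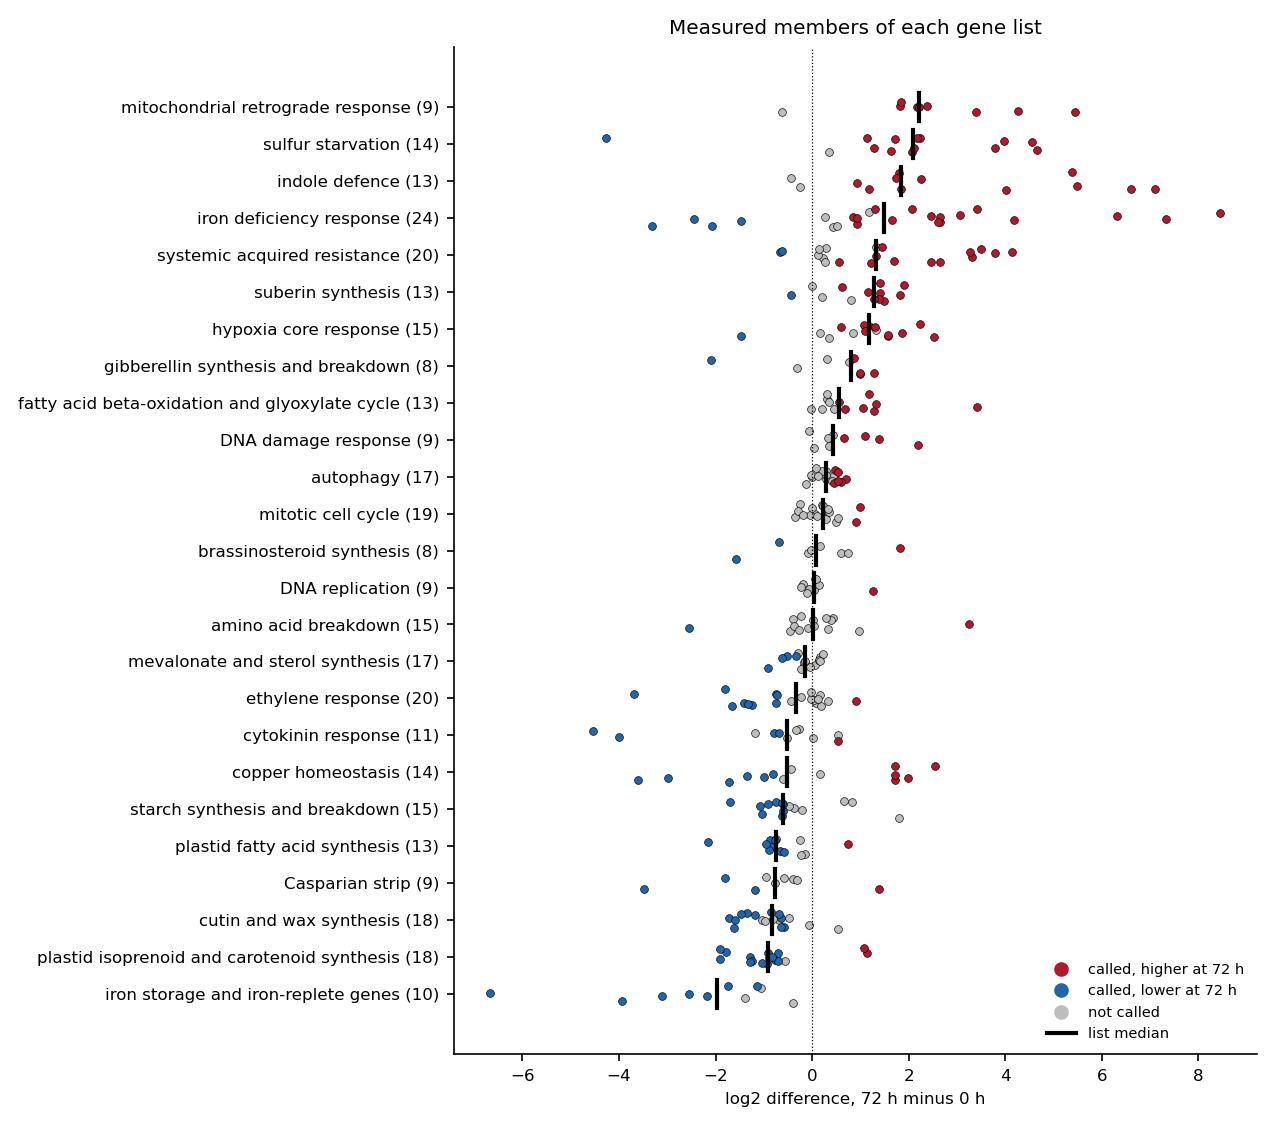
Difference between 72 h and 0 h (log2, horizontal axis) of each measured member of 25 gene lists, ordered by the list's median (black bar), with the number of members in brackets. Red and blue points were called higher and lower at 72 h and grey points were not called. Mitochondrial retrograde response has the highest median (2.22) and iron storage the lowest (-1.96).

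No locus passed the test of 72 h against 48 h. With limma, 0 of 21043 loci were called (smallest adjusted p 0.0512), and 1929 (9.17%) had an unadjusted p under 0.05. Leaving out 1 array gave 0 to 7 calls, the 7 without 48 h replicate 3 and 5 without 72 h replicate 2. The 48 h and 72 h values share the same 0 h arrays as their starting point, so their agreement against 0 h is not given as a result. AT1G14960 was at 8.11, 4.93 and 5.71 at 0 h, 4.13, 2.67 and 3.57 at 48 h and 0.165, 0.280 and 0.0692 at 72 h, and the difference of 72 h minus 48 h was -4.53 ± 0.46 (adjusted p = 0.0591). AT4G33720 was at 12.9, 6.86 and 6.84 at 0 h, 2.14, 2.05 and 5.74 at 48 h and 0.198, 0.334 and 0.106 at 72 h (-3.94 ± 0.52 for 72 h minus 48 h, adjusted p = 0.121). In both, each 72 h array lay below each 48 h array. The share of all loci so separated was not counted, and the loci given here at 3 times were picked for large differences. PUB54 was at 0.0250, 0.0557 and 0.0199 at 0 h, 0.363, 0.536 and 0.724 at 48 h and 1.48, 1.57 and 1.71 at 72 h, and AT1G14550 at 0.0957, 0.0458 and 0.0364 at 0 h, 0.498, 0.455 and 0.668 at 48 h and 2.17, 2.64 and 1.78 at 72 h, with 72 h arrays above the 48 h arrays in both, and adjusted p of 0.209 and 0.129. AT3G02480 had its highest signals at 48 h (0.00841, 0.0234 and 0.0357 at 0 h, 3.21, 6.21 and 3.24 at 48 h and 0.289, 1.03 and 1.39 at 72 h). Members named beyond the 4 called members of largest change in a list, or beyond 2 each way in a class, were chosen after their values were seen, as were GLIP1, CBF2, the members of the shorter runs and the loci set out at 3 times.

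**Figure D5:**
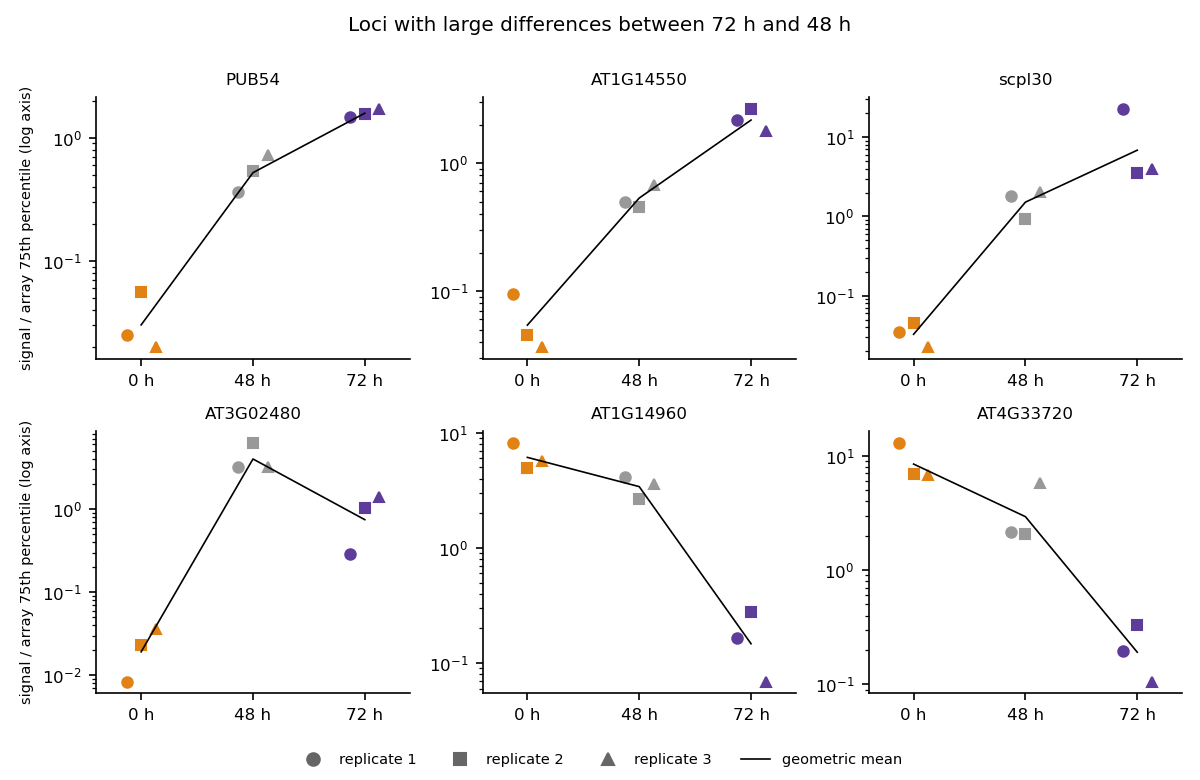
Relative signal (processed signal over the array's 75th percentile, log axis) at 0, 48 and 72 h of 6 loci with large differences between 72 h and 48 h, 3 arrays per time. Symbols mark replicates and lines join the geometric means. None passed the test of 72 h against 48 h, AT1G14960 coming nearest of the 6 (adjusted p 0.0591).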

How the data were processed

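Total RNA of whole seedlings was labelled with Cy3 and hybridised to Agilent 1-colour arrays, and the scans were read with Agilent Feature Extraction 9.5.3.1, per the submitters' processing notes. The deposited scanner files hold the processed signal, an intensity that the authors' software had corrected for background and spatial trend, per the file headers, with flags for spots well above background, saturated or outlying. A deposited value table holds linear ratio values of the same spots to a level per probe that the sources used here do not state. In it, 37.3% of probes have a value of exactly 1 on at least 1 array. Its columns were matched to the scanner files over 22644 probes. The value table served as an alternative. Gene annotation came from the array's own locus column and a RefSeq gene table for symbols, in which 20919 of 21043 loci were found.

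Computed here were log2 processed signals less each array's own 75th percentile, after leaving out control spots and 80 outlier spots. No spot was saturated. Loci were kept if at 1 or more of the times a probe exceeded background on each of the 3 arrays, spots of a probe were averaged, and the probe with the highest mean stood for its locus. Of 37478 probes, 11242 carried no locus and were not used here. Limma 3.58.1 in R 4.3.3 fitted 1 mean per time over all 9 arrays with eBayes, 6 residual and 2.54 prior degrees of freedom, so that the 48 h arrays share in the estimate of spread. The median standard error was 0.19. Tables were made with Python 3.11.15 and pandas 2.3.3. In 14 loci an array value of 72 h or 0 h was missing and the fit used the others. The number of arrays, 3 per time, limits the precision.

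A locus above background on no array of 1 time received a lower bound instead of a fold change. The group at 72 h and the group at 0 h were taken from the array titles. Whether same-numbered arrays are paired was checked by the correlation of their deviations from the group means, given with the alternatives. Alternatives covered background correction, scaling, the value table, the filter, the probe rule, the arrays fitted, slide and replicate blocks, and leaving out each array or slides 3 and 4.

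Members of the 25 gene lists (356 loci, 98.6% of them measured) and of the 14 classes chosen by words in names were picked with earlier results of these data known, so their counts are descriptions and support nothing independently. Classes rest on gene names alone, so loci without an annotated name are missing from them. Another 16 loci were left out of the lists because the reference table gave no name. Named genes were the 8 largest changes each way with a symbol, 10 without, 5 bounds, up to 4 per list, 2 each way per class, the 4 longest runs each way and all tissue markers. They had to be called and to move the same way in all 3 pairs.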

Additional observations from a re-analysis of the deposited data

How the results depend on the processing

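The count of called loci, 7627, lay between 5630 (without 72 h replicate 3) and 8485 (without 0 h replicate 1) when each array was left out, and between 5980 (slide as a fixed block) and 8754 (deposited value table) in the other settings except without slides 3 and 4. That setting, which keeps 2 arrays per time, gave 4399 calls, 1880 higher and 2519 lower. Rises numbered 2473 to 3976 and falls 3157 to 4509 over the left-out arrays. The value table gave 5707 rises and 3047 falls at a median of all loci of 0.23, normexp gave 2600 and 4433 at a median of -0.08, and quantile normalization gave 3908 and 3870. The cause of these shifts was not tested. For 72 h against 48 h, the count of 0 was 1 with normexp and with the value table, 2 with median scaling, 3 with quantile normalization and with the arrays of the 2 times alone, 6 with slide as a random block and with the replicate number as a block, 0 to 7 with an array left out, and 0 in the remaining settings.

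Same-numbered 72 h and 0 h arrays had deviations correlated at 0.209, -0.01 and 0.116 for numbers 1, 2 and 3, so the numbers were not taken to pair the samples. With the replicate number as a block, 8152 loci were called, 3835 higher and 4317 lower, and 6 between 72 h and 48 h.

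Of 364 called genes in lists or named, 256 were called in each of the 21 alternatives with a test that included them. A locus not above background on all 9 arrays could drop out of the alternative with that filter, which tested 19901 loci. Whichever array was left out, 303 were called. Losses numbered 99 without slides 3 and 4, 50 with slide as a block, 25 in the value table, 16 with normexp and 3 with the replicate block. The sign turned, with no call left, for MYB72 (-0.21, adjusted p = 0.689) and GA2OX8 (-0.55, adjusted p = 0.156) with normexp correction. Limits are the missing 72 h control without silver, 3 arrays per time, slide 4 holding only a 72 h array, dim probes near background that set large folds, and tandem copies that may share signal.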

Other observations

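Further classes of loci, chosen by words in their names, changed in both directions. Of 190 cytochromes P450, enzymes that oxidise hormones, defence compounds and toxins, 53 rose (27.9%, against 16.9% of all loci) and 40 fell (21.1%, against 19.4%), with a median of 0.13 (0.04 with slide as a block, -0.13 within slide 1 and 0.14 within slide 2, and 0.13 with members above background at only 1 time taken at their bound), which was -0.10 with normexp correction. Without slides 3 and 4, 25 rose. Of 21 extensin and proline-rich proteins, structural proteins of the cell wall, 3 rose (14.3%, against 16.9%) and 8 fell (38.1%, against 19.4%). Their median was -0.82 (-0.46 with slide as a block, -0.71 within slide 1 and -0.47 within slide 2, and -0.82 with members above background at only 1 time taken at their bound). MOP10 differed by -5.67 ± 0.51, PRP1 was above background on no 72 h array and at least 13.5-fold lower, and EXT4 rose by 1.41 ± 0.29. Of 46 kinesin and tubulin genes 6 rose (13%, against 16.9%) and 10 fell (21.7%, against 19.4%), at a median of -0.12 (-0.05 with slide as a block, -0.14 within slide 1 and 0.03 within slide 2), with 3 rises without 0 h replicate 2 and 2 without 72 h replicate 2 or 72 h replicate 3. With slide as a block 5 fell. The tubulin gene TUB5 differed by -1.38 ± 0.27, and GCP2, of the complex that starts microtubules, rose by 1.24 ± 0.23.

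Of 47 loci named as ribosomal proteins none rose (against 16.9%) and 7 fell (14.9%, against 19.4%), but 22 fell without 0 h replicate 1. The largest fall was that of RPS9 (-2.12 ± 0.20). Among 54 zinc finger loci 9 rose (16.7%, against 16.9%) and 14 fell (25.9%, against 19.4%), with 9 falls without 0 h replicate 2 and 8 without 72 h replicate 3, and OZF1 rose by 2.08 ± 0.22. Of 26 F-box loci 6 rose (23.1%, against 16.9%, and 11 in the value table) and 3 fell (11.5%, against 19.4%), with AT3G59940 at 1.81 ± 0.32 and FBS1 at -1.97 ± 0.30. Of 13 loci with a heavy metal-associated name, HMA5 rose (7.69%, against 16.9%) and 3 fell (23.1%, against 19.4%, and 1 without slides 3 and 4), among them PAA2, a copper ATPase of chloroplasts (-1.21 ± 0.18). Of 10 lipid transfer loci none rose (against 16.9%) and 3 fell (30%, against 19.4%), such as GLTP2 (-2.81 ± 0.50). Of 12 pentatricopeptide repeat loci 1 rose (8.33%, against 16.9%) and 3 fell (25%, against 19.4%). Of 17 histone loci none was called (against 36.2% of all loci).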
